A study of Homo sapiens with 4 samples.

Results

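The genes described here lie side by side on the short arm of chromosome 1. They are the protein-coding genes of the deposited table whose start falls between 32936445 and 37947057 of chromosome 1 in GRCh38, by the Ensembl ID and the GENCODE 29 annotation. The table held 60 such genes among 64252 gene IDs, and 52 of them passed the low-count filter. RNA was sequenced from SK-N-BE(2) cells, an established neuroblastoma line with amplified MYCN, in 4 libraries. In 2 libraries the cells carried a short hairpin RNA against TTC8 (shTTC8), and in 2 they carried a scramble hairpin (shScb). The labels give no time, clone or culture for a library and do not say how many hairpins were used.

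The members were selected on their fold changes between shTTC8 and shScb in these same 4 libraries, since the interval was drawn where neighbouring genes had shifted together. Their fold changes are therefore given below as a description with no test, each with its standard error (SE). The total of members called stands beside the share of all genes called in the same fit, and nothing is read from the difference. Counts for smaller groups of members are descriptions too. They stand against the same shares of tested protein-coding genes, 18.6% called higher and 20.6% called lower by edgeR. Levels are given as CPM, counts scaled to the size of each library.

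As background, genes that sit next to each other on a chromosome can share chromatin context and promoter regions. Loss of the end of this chromosome arm is a common lesion of neuroblastoma with amplified MYCN. The members are otherwise a mixed company. They include the Argonaute genes AGO1, AGO3 and AGO4, whose proteins carry microRNAs to their targets, a run of connexin genes, the RNA-binding protein gene SFPQ, the polycomb subunit gene PHC2 and the metal-sensing transcription factor gene MTF1.

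Windows of 250 bases before the RefSeq start (GRCh38.p14) are shown for 7 members, chosen after their values were seen, whose RefSeq and GENCODE starts lie within 43 bases of each other. YRDC, MTF1, STK40 and MEAF6 were called higher in shTTC8, PHC2 and THRAP3 were not called, and COL8A2 was called lower. Each window runs 5′ to 3′ in the direction of its gene. Capitals mark letters matched on either strand by CACGTG (the E-box bound by MYC family proteins), TGCGCNC or TGCACNC (the core bound by MTF1), CCAAT or TATAAA, and where matches overlap the capitals run together.
YRDC (chr1:37808209-37808458, minus strand): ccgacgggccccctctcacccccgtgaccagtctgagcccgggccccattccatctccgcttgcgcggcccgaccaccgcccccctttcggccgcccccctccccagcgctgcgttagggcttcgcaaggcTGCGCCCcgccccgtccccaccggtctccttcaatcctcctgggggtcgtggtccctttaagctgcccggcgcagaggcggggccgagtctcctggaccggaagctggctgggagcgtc
MTF1 (chr1:37859593-37859842, minus strand): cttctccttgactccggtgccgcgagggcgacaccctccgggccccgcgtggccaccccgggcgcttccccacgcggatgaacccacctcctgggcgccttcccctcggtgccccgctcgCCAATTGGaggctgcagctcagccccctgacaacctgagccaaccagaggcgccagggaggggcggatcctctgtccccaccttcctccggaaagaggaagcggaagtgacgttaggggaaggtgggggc
STK40 (chr1:36385925-36386174, minus strand): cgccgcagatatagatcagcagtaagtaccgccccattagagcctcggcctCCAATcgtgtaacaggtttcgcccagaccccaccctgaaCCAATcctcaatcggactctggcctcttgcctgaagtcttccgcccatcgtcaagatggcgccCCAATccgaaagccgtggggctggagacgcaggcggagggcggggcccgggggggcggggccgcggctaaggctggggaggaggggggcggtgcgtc
MEAF6 (chr1:37514767-37515016, minus strand): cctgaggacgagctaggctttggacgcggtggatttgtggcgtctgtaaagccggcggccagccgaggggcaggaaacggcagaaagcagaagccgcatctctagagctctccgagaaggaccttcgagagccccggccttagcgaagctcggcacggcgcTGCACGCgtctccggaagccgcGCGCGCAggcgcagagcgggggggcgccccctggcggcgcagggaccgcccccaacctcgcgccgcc
PHC2 (chr1:33431096-33431345, minus strand): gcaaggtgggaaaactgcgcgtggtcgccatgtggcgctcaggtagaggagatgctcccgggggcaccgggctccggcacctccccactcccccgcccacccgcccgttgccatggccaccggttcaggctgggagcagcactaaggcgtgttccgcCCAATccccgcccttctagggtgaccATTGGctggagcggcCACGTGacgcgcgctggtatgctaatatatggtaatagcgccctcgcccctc
THRAP3 (chr1:36224193-36224442, plus strand): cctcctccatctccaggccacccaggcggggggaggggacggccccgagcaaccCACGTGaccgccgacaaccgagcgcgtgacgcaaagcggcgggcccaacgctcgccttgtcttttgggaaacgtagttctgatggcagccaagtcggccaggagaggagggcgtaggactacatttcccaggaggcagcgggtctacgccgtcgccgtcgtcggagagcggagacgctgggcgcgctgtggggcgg
COL8A2 (chr1:36125223-36125472, minus strand): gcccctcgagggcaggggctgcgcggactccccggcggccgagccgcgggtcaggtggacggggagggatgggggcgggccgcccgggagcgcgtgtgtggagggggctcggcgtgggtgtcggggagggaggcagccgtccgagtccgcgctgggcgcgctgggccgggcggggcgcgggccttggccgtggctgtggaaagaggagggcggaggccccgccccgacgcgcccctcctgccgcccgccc
Windows were found for 42 of the 60 members. In some of them the RefSeq start lies far from the GENCODE start. The distance was 27614 bases for ZMYM1, 13401 for AGO1, 6567 for TRAPPC3 and 1686 for MANEAL. CACGTG was present in 2 of these 42 windows (4.76%), those of PHC2 and THRAP3, against 7.84% of 15842 windows of protein-coding genes. None of the 21 windows of members called higher held it. The metal response core was present in 12 of the 42 windows (28.6%), against 29.3% of all windows, and in 4 of the 21 windows of members called higher. CCAAT was present in 17 windows (40.5%), against 34.5% of all, and TATAAA in 3 (7.14%), against 9.23% of all. CCAAT stood 3 times in the STK40 window and 2 times in the MTF1 window, where its matches on opposite strands overlap. A match of letters is a description of the window and does not show that a factor binds there.

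TTC8, the targeted gene, had 1130 and 1268 counts in the shTTC8 libraries and 9888 and 10398 counts in the shScb libraries. Its level was 29.9 ± 1.09 CPM in shTTC8 and 193 ± 3.05 CPM in shScb (SD, n = 2 each). Library totals ran from 38284663 to 40863047 counts in shTTC8 and from 51168727 to 55331449 counts in shScb. Defining markers of neuroblastoma were present, with 11 of 11 tested, of which 2 were higher and 8 lower in shTTC8 by edgeR and by DESeq2. Markers of other cell types also differed between the groups. Of 9 fibroblast and endothelium markers, 6 were tested and all 6 were lower in shTTC8 by edgeR and by DESeq2, while PECAM1 had no count. Their summed level was 73.9 to 75.2 CPM in shTTC8 and 270 to 283 CPM in shScb. Most of that difference was LUM, at 29.9 CPM in shTTC8 and 185 CPM in shScb. PDGFRA and COL3A1 had smaller log2 fold changes, -0.34 and -0.42. Schwann cell and glia markers summed to 14.1 to 15.6 CPM in shTTC8 and 36.7 to 38.6 CPM in shScb, with 1 of 4 tested lower, NGFR at 8.83 CPM in shTTC8 and 32.0 CPM in shScb, and SOX10 at no count. Blood and epithelium markers summed to 10.4 to 10.5 CPM in shTTC8 and 23.0 to 23.6 CPM in shScb, with 2 of 5 tested lower and CD3E at no count. Most of that difference was PTPRC, at 3.27 CPM in shTTC8 and 15.4 CPM in shScb, while KRT8 had 2.03 and 2.05 CPM in shTTC8 and 1.17 and 1.32 CPM in shScb and was not called. Their part in the values of the interval was not tested. Bulk libraries do not show whether these transcripts came from the neuroblastoma cells of the line or from other cells. Fewer cells of a type and less RNA per cell cannot be told apart in them either.

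The interval's median was higher in shTTC8, by a small amount, and the members were uneven. The median log2 fold change of the 52 tested members, shTTC8 over shScb, was 0.29, a 1.23-fold higher level. In the same fit the median over 14084 tested protein-coding genes was -0.0003. The members' quartiles were -0.05 and 0.52, against -0.26 and 0.24 for all tested protein-coding genes. Of the 52 tested members, 25 were called higher and 2 lower at an adjusted p under 0.05 (edgeR quasi-likelihood test, Benjamini-Hochberg over all 19610 tested genes). The same call was made for 18.6% of tested protein-coding genes upward and 20.6% downward (39.2% in either direction), and for 15.2% upward and 16.7% downward of all tested genes (31.9% in either direction). In 37 of the 52 members the log2 fold change was above 0, where 50.0% of tested protein-coding genes and 50.4% of all tested genes were above 0, and 10 members lay within 0.1 of 0 on the log2 scale. Of the 25 members called higher, 9 lost the call in at least 1 other setting, and these were ADPRS, AGO1, CLSPN, GRIK3, LSM10, OSCP1, TMEM35B, ZNF362 and ZSCAN20.

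In 32 of the 52 members both shTTC8 libraries lay above both shScb libraries, in 9 they lay below, and in 11 the groups overlapped. Among tested protein-coding genes 35.1% were separated upward and 36.0% downward, and among all tested genes 32.5% upward and 32.9% downward. The 60 members together took 0.293% and 0.296% of all counts in the shTTC8 libraries and 0.253% and 0.254% in the shScb libraries. Their summed level was 2883 and 2922 CPM in shTTC8 and 2561 and 2587 CPM in shScb, a ratio of 1.13. The most abundant member, SFPQ, was lower in both shTTC8 libraries and not called. Within a group, the members' median difference of replicate 2 minus replicate 1 was 0.02 in shTTC8 and 0.01 in shScb on the log2 CPM scale.

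**Figure D1:**
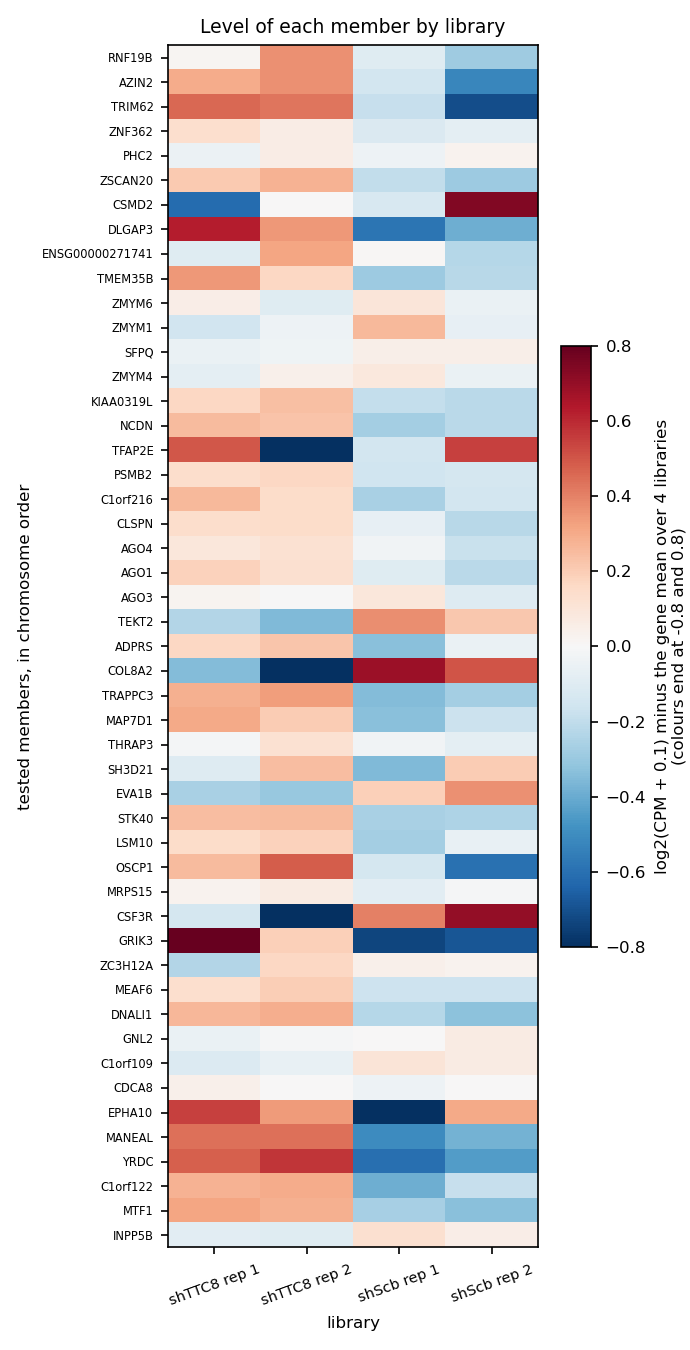
Level of 49 of the 52 tested members in each library, as log2(CPM + 0.1) minus the gene's mean over the 4 libraries, with genes in chromosome order down the page and colours ending at -0.8 and 0.8. Red dominates the shTTC8 columns and blue the shScb columns, with 30 of the members shown separated upward, 8 downward and 11 overlapping.

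The largest change among members with a mean of at least 5 CPM was that of YRDC, whose product acts in the threonylcarbamoyl modification of tRNAs. YRDC (ENSG00000196449, minus strand, chromosome 1, 37802944 to 37808185) had 60.3 and 64.5 CPM in shTTC8 and 28.5 and 31.7 CPM in shScb, a log2 fold change of 1.05 (SE 0.08). Both shTTC8 libraries lay far above both shScb libraries. YRDC shares exonic positions with C1orf122, which had 98.1% of its counts. The reads of these neighbours may be mixed if the libraries do not mark strand, which was not checked. C1orf122 itself had 52.7 and 53.5 CPM in shTTC8 and 33.2 and 38.3 CPM in shScb (log2 fold change 0.57, SE 0.08). On either side of this pair lie genes that were called higher as well. MANEAL, an endomannosidase-like gene whose overlapping gene had no count, had 111 and 111 CPM in shTTC8 and 57.3 and 62.5 CPM in shScb (log2 fold change 0.89, SE 0.07). MTF1, the transcription factor that induces metallothionein genes in response to zinc, had 21.6 and 21.2 CPM in shTTC8 and 14.5 and 13.8 CPM in shScb (log2 fold change 0.60, SE 0.10). In these 4 neighbours, from the start of MANEAL at 37793802 to the end of MTF1 at 37859620, both shTTC8 libraries lay above both shScb libraries.

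The synaptic genes of the interval were 4, of which 3 were called higher and none lower, by edgeR as by DESeq2. Of all tested protein-coding genes, 18.6% were higher and 20.6% lower by edgeR. By DESeq2, 2371 of these 14084 genes were higher and 2583 lower. DLGAP3, a scaffold of the postsynaptic density, had 14.6 and 12.0 CPM in shTTC8 and 6.25 and 7.18 CPM in shScb (log2 fold change 0.99, SE 0.14). NCDN, which encodes neurochondrin, had 87.7 and 85.9 CPM in shTTC8 and 60.9 and 63.3 CPM in shScb (log2 fold change 0.48, SE 0.06). NCDN starts inside its divergent neighbour KIAA0319L, which had 77.8% of its counts and a log2 fold change of 0.41 (SE 0.07). GRIK3, a kainate receptor subunit, was the member with the highest fold change but a low level, at 2.29 and 1.06 CPM in shTTC8 and 0.514 and 0.534 CPM in shScb (log2 fold change 1.67, SE 0.40). It was not called once shTTC8 replicate 1, the higher library, was left out. CSMD2, a large transmembrane protein gene, had 0.154 and 0.290 CPM in shTTC8 and 0.257 and 0.552 CPM in shScb, so the groups overlapped.

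Of the 6 genes for genome maintenance and proteolysis, 5 were called higher and none lower by edgeR and by DESeq2, and the median was 0.39. The shares of protein-coding genes were the same 18.6% and 20.6% by edgeR. TRIM62, a RING-domain ubiquitin ligase, had 6.64 and 6.50 CPM in shTTC8 and 4.21 and 2.89 CPM in shScb (log2 fold change 0.89, SE 0.20). STK40, a pseudokinase that works with the ubiquitin ligase COP1, had 96.5 and 96.9 CPM in shTTC8 and 67.9 and 68.4 CPM in shScb (log2 fold change 0.51, SE 0.06). The replicates of STK40 differed by less than 1 CPM in each group. PSMB2, a beta subunit of the proteasome core, had 183 and 186 CPM in shTTC8 and 148 and 150 CPM in shScb (log2 fold change 0.30, SE 0.06). ADPRS, the hydrolase that removes ADP-ribose from serine, changed by 0.38 (SE 0.10) and CLSPN, the claspin adaptor of the replication checkpoint, by 0.29 (SE 0.09). RNF19B, a RING ubiquitin ligase, had 8.32 and 10.7 CPM in shTTC8 and 7.70 and 6.73 CPM in shScb and was not called.

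The 3 Argonaute genes stand in a row on the plus strand, and only AGO1 was called. AGO1 had 78.7 and 75.8 CPM in shTTC8 and 64.9 and 59.7 CPM in shScb (log2 fold change 0.31, SE 0.07), but it was not called once shTTC8 replicate 1 was left out. AGO4 had 21.2 and 21.7 CPM in shTTC8 and 19.5 and 17.6 CPM in shScb (log2 fold change 0.21, SE 0.10). AGO3 had 28.9 and 28.4 CPM in shTTC8, within the 30.3 and 26.5 CPM of shScb (log2 fold change 0.01, SE 0.09). The difference between these 3 changes was not tested. Per kilobase of exon, the AGO1 level was 5.56 CPM in shTTC8 and 4.49 CPM in shScb, above AGO4 at 2.95 and 2.55 CPM and AGO3 at 1.35 and 1.34 CPM in shTTC8 and shScb.

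Of 5 RNA factors tested, 1 was called higher and none lower by edgeR and by DESeq2, with a median of 0.11. SFPQ, a splicing factor of nuclear paraspeckles and the most abundant member, had 592 and 600 CPM in shTTC8 and 635 and 637 CPM in shScb (log2 fold change -0.09, SE 0.06). THRAP3, a splicing-associated protein gene, had 177 and 195 CPM in shTTC8 and 175 and 169 CPM in shScb (log2 fold change 0.11, SE 0.06). LSM10, a subunit of the U7 particle that matures histone mRNA, was the called gene, at 25.2 and 25.8 CPM in shTTC8 and 18.8 and 21.8 CPM in shScb. ZC3H12A, the ribonuclease regnase, had a log2 fold change of -0.06 (SE 0.19).

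**Figure D2:**
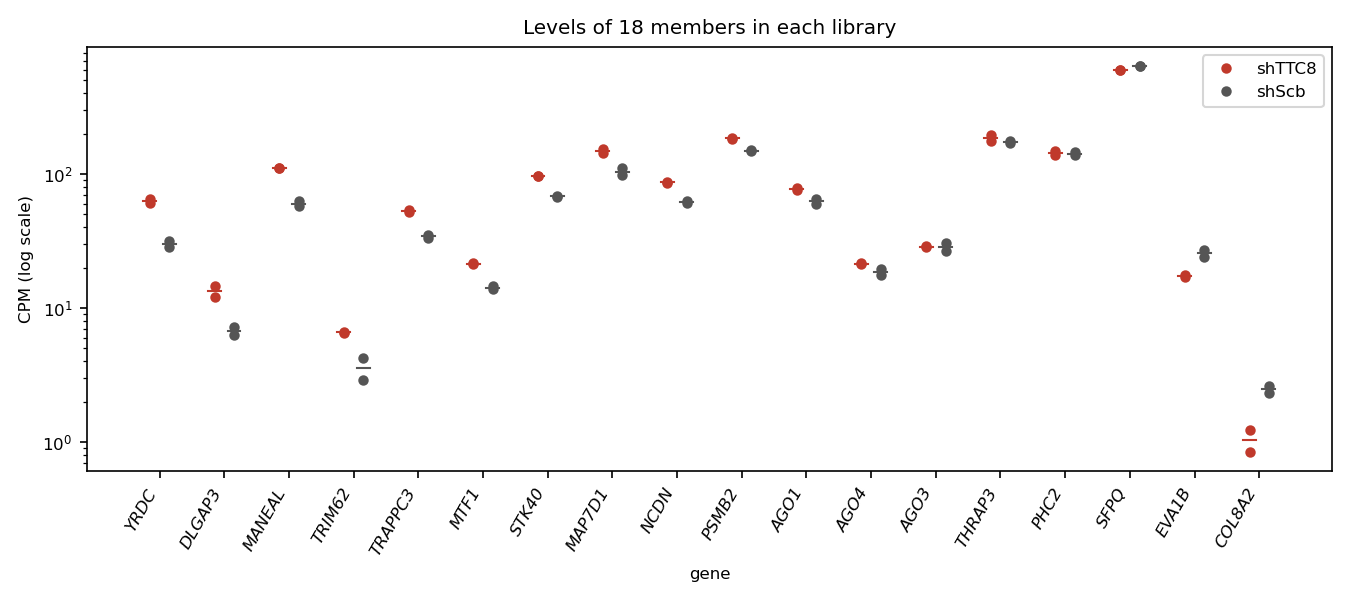
CPM of 18 members in each library on a log scale, with shTTC8 left of shScb for every gene, points for the 2 libraries of a group and a short line for their mean. The groups are apart and shTTC8 is higher from YRDC to AGO4, the points of AGO3 and PHC2 overlap, those of THRAP3 are close, and shTTC8 is lower for SFPQ, EVA1B and COL8A2.

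Among 9 zinc finger and chromatin genes, 4 were called higher and none lower by edgeR (2 and none by DESeq2), and their median was 0.01. Besides MTF1, the called genes were MEAF6, a subunit of MYST acetyltransferase complexes, with a log2 fold change of 0.33 (SE 0.07), the zinc finger gene ZNF362 at 0.19 (SE 0.07) and ZSCAN20 at 0.50 (SE 0.16). ZNF362 and ZSCAN20 were not called in some other settings. PHC2, a subunit of polycomb repressive complex 1, had 138 and 148 CPM in shTTC8 and 139 and 145 CPM in shScb (log2 fold change 0.01, SE 0.06). The 3 MYM zinc finger genes, which lie close together, were all slightly below 0, with ZMYM4 at -0.04 (SE 0.07), ZMYM6 at -0.05 (SE 0.10) and ZMYM1 at -0.20 (SE 0.12), and in each of them the groups overlapped. TFAP2E, an AP-2 transcription factor gene, stood below 1 CPM in all 4 libraries.

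A list of 6 genes of metabolism, mitochondria, vesicle tethering and the nucleolus gave 1 called higher and none lower by edgeR and by DESeq2, with a median of 0.01. The called gene was TRAPPC3, and no gene of metabolism or mitochondria in the list was called. TRAPPC3, a subunit of the vesicle-tethering TRAPP complexes, had 51.9 and 53.7 CPM in shTTC8 and 33.4 and 35.2 CPM in shScb (log2 fold change 0.62, SE 0.08). It overlaps its divergent neighbour MAP7D1, a microtubule-associated protein gene with 290% of its counts, at 152 and 143 CPM in shTTC8 and 98.0 and 110 CPM in shScb (log2 fold change 0.50, SE 0.07). MRPS15, a subunit of the mitochondrial ribosome, had a log2 fold change of 0.09 (SE 0.07) and the nucleolar GTPase gene GNL2 of -0.07 (SE 0.06). AZIN2, an antizyme inhibitor of the polyamine pathway, had 2.19 and 2.30 CPM in shTTC8 and 1.58 and 1.20 CPM in shScb and was not called.

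Other members, grouped here after their values were seen, include genes of motile cilia. DNALI1, a light intermediate chain of axonemal dynein, had 9.22 and 9.37 CPM in shTTC8 and 6.51 and 6.05 CPM in shScb (log2 fold change 0.57, SE 0.14), but it overlaps GNL2, which had 1417% of its counts. TEKT2, which encodes a tektin of the axoneme, had 0.850 and 0.773 CPM in shTTC8 and 1.35 and 1.20 CPM in shScb with a log2 fold change of -0.65 (SE 0.33), which was not called. CDCA8, the borealin subunit of the chromosomal passenger complex, had 73.3 and 71.5 CPM in shTTC8 and 69.3 and 71.6 CPM in shScb. OSCP1 (log2 fold change 0.74, SE 0.19) was among the 10 largest upward changes at 5 CPM or more. C1orf216 (0.41, SE 0.08) and TMEM35B (0.52, SE 0.17) were also called higher, TMEM35B sharing exonic positions with ENSG00000271741. ENSG00000271741, SH3D21 and the ephrin receptor gene EPHA10 were not called.

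The members called lower were 2. EVA1B had 17.6 and 17.0 CPM in shTTC8 and 24.0 and 27.1 CPM in shScb (log2 fold change -0.57, SE 0.10), and shares exonic positions with SH3D21, which had 18.5% of its counts. COL8A2, a chain of type VIII collagen, had 1.24 and 0.846 CPM in shTTC8 and 2.63 and 2.30 CPM in shScb (log2 fold change -1.24, SE 0.29). INPP5B, an inositol polyphosphate phosphatase, and C1orf109 had log2 fold changes of -0.19 (SE 0.10) and -0.17 (SE 0.08), and neither was called. The receptor gene of granulocyte colony-stimulating factor, CSF3R, had the lowest fold change but was below 1 CPM in all libraries and not called (log2 fold change -1.34, SE 0.54).

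The 8 members that were not tested had at most 4 counts in any library. Among them were the connexin genes GJB5 and GJA4 and the R-spondin gene RSPO1. A3GALT2 and HMGB4 had no count in any library. Levels this low allow no comparison. The table also held 60 genes of other types that start in the interval, of which 27 had a count and 9 were tested. None of the 9 was called by edgeR or by DESeq2, and none had an unadjusted p under 0.05. Their median log2 fold change was 0.12 and their median level in shTTC8 was 0.589 CPM, so a shift of the size seen in the members was not detectable at this depth.

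The 41 members with a mean of at least 5 CPM had a median of 0.33, with 24 called higher and 1 lower. Over the 10765 such protein-coding genes tested the median was -0.003, and 21.2% were called higher and 23.5% lower. The 11 tested members under 5 CPM had a median of -0.06, with 1 called in each direction, where 10.3% of the 3319 such protein-coding genes were called higher and 11.0% lower. The median was 0.20 for 20 genes on the plus strand and 0.32 for 32 on the minus strand. Members without shared exons had a median of 0.32 (28 genes) and those with shared exons 0.26 (24 genes). The median GC content of the longest transcript was 51.9% in the members, 52.9% in the lower flank, 48.6% in the higher flank and 49.0% over all tested protein-coding genes. Across the 41 members at 5 CPM or more, Spearman's rho of the log2 fold change was 0.47 with GC content and -0.37 with the shScb level, and across the 10765 genes it was 0.31 and -0.10. Across all 52 tested members it was weaker, at 0.19 and -0.06, and across all 14084 tested protein-coding genes it was 0.23 and -0.08. These are descriptions over genes that share the same 4 libraries. After the trend with GC content and transcript length was subtracted, a step added after seeing the data, the median of the members was 0.31.

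From the interval's start, successive stretches of 1 Mb had medians of 0.29 (8 tested genes), 0.76 (2), 0.24 (15), 0.23 (14) and 0.33 (13). The longest run of neighbouring tested members with a log2 fold change above 0 was 6. Some divergent neighbours have starts within 1 kb of each other. KIAA0319L and NCDN were both called higher, as were TRAPPC3 and MAP7D1, and both of these pairs share exonic positions. C1orf109 at -0.17 and CDCA8 at 0.04, whose starts lie 169 bases apart, were both uncalled. ZMYM6 and ZMYM1, 204 bases apart, were both slightly below 0 and uncalled. ENSG00000271741 at 0.24 and ZMYM1 at -0.20, 431 bases apart, lay on opposite sides of 0 and were both uncalled.

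**Figure D3:**
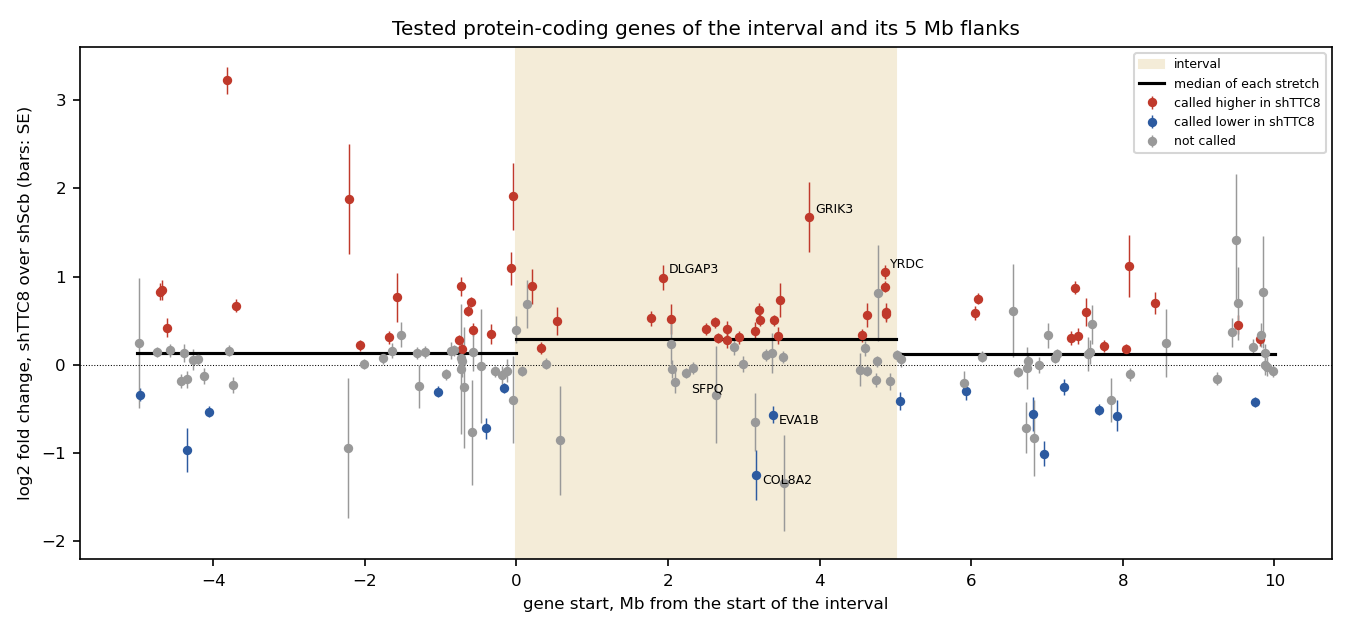
Log2 fold change of shTTC8 over shScb for each tested protein-coding gene against its start, in Mb from the start of the interval, with the interval shaded, SE as bars, colours for the call of edgeR and a black line for the median of each stretch. The medians are 0.14 in the flank at lower coordinates, 0.29 in the interval and 0.12 in the flank at higher coordinates, and calls in both directions lie in all 3 stretches.

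Both flanks had medians above 0 and below that of the interval. The flank of 5 Mb at lower coordinates, towards the end of the arm, held 57 tested genes with a median of 0.14, of which 18 were called higher and 6 lower by edgeR (17 and 6 by DESeq2). The flank of 5 Mb at higher coordinates held 51 tested genes with a median of 0.12, of which 12 were called higher and 8 lower by edgeR (11 and 4 by DESeq2). The shares over all tested protein-coding genes were 18.6% higher and 20.6% lower by edgeR. After the adjustment for GC content and length the median was 0.08 in the lower flank and 0.13 in the higher flank. Summed levels of the lower flank were 3673 and 3680 CPM in shTTC8 and 3360 and 3365 CPM in shScb, and those of the higher flank were 3458 and 3435 CPM in shTTC8 and 3676 and 3726 CPM in shScb. The sum of the higher flank leans on its most abundant gene, YBX1, at 1043 and 1034 CPM in shTTC8 and 1352 and 1428 CPM in shScb. In that flank 32 of the 51 tested genes had a log2 fold change above 0 and 19 below. The edges were drawn on these same values, so the difference between the interval and its flanks was not tested.

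Just inside the lower edge, RNF19B and AZIN2 had log2 fold changes of 0.40 and 0.69. Just outside it, TMEM54, HPCA and FNDC5 had -0.40, 1.91 and 1.10. HPCA encodes the neuronal calcium sensor hippocalcin and stood at 1.29 and 1.81 CPM in shTTC8 and 0.475 and 0.350 CPM in shScb. FNDC5, the precursor of irisin, stood at 5.48 and 6.31 CPM in shTTC8 and 2.79 and 2.72 CPM in shScb, and both were called higher. HPCA shares exonic positions with TMEM54, which had 59.5% of its counts. Just inside the higher edge, C1orf122, MTF1 and INPP5B had 0.57, 0.60 and -0.19. Just outside it, SF3A3, FHL3 and UTP11 had 0.11, -0.41 and 0.06. The 5 tested genes of the first 1 Mb beyond this edge had a median of -0.21, with 2 called lower and none higher by edgeR (1 and none by DESeq2, and 2 and none at an unadjusted p under 0.05).

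**Figure D4:**
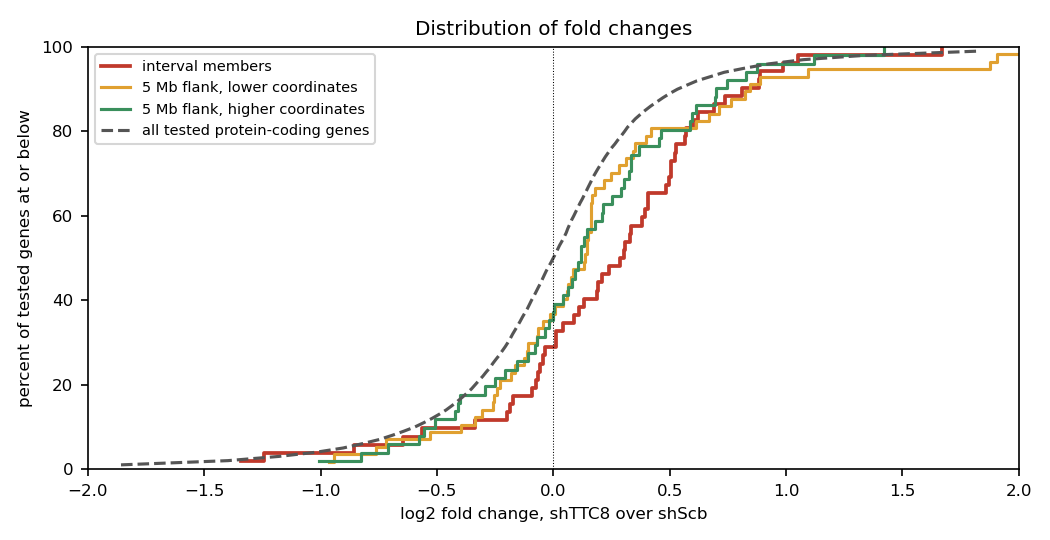
Share of tested genes (vertical axis, percent) at or below each log2 fold change of shTTC8 over shScb (horizontal axis), for the interval, its flanks and all tested protein-coding genes. The curve of the interval lies to the right of the others, with a median of 0.29 against 0.14, 0.12 and -0.0003, and crosses the others in both tails.

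Cut into windows of 5 Mb, the genome had 248 windows with at least 20 tested protein-coding genes. Their medians ran from -0.34 to 0.29, and none was above that of the interval, which was placed to hold the shifted genes and so is not comparable with windows on a fixed grid. On that grid the interval lies within the chromosome 1 windows from 30000001 to 35000000, with a median of 0.16, and from 35000001 to 40000000, with 0.11. The next window, from 40000001 to 45000000, had 0.23. The highest median, 0.29 over 25 genes, lay on chromosome 10 from 130000001 to 135000000. Over the 1352 tested protein-coding genes of chromosome 1 outside the interval the median was -0.01.

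Relatives and partners of the members that lie elsewhere in the genome were read from the same fit. The counts of each list, here and in the next paragraph, stand beside 18.6% higher and 20.6% lower of all tested protein-coding genes by edgeR. Of 13 other proteasome core genes, 9 were higher in shTTC8 and none lower by edgeR and by DESeq2, with a median of 0.20 beside 0.30 for PSMB2. PSMB6 rose by 0.63 (SE 0.07, edgeR adjusted p = 4.94e-06), PSMB5 by 0.45 (SE 0.06, edgeR adjusted p = 4.63e-05) and PSMA7 by 0.40 (SE 0.07, edgeR adjusted p = 3.84e-04) on the log2 scale. Of 9 other genes of polycomb repressive complex 1, 6 were higher and none lower (5 and none by DESeq2), with a median of 0.30. BMI1 rose by 0.73 (SE 0.07, edgeR adjusted p = 2.50e-06), CBX2 by 0.48 (SE 0.06) and CBX8 by 0.57 (SE 0.09), while the member PHC2 stood at 0.01. Of 10 other genes of small RNA silencing, 1 was higher and 2 lower. DICER1, the nuclease that cuts precursor microRNAs, was at 112 and 109 CPM in shTTC8 and 169 and 149 CPM in shScb (log2 fold change -0.52, SE 0.07, edgeR adjusted p = 3.95e-05). TARBP2, its RNA-binding partner, rose by 0.36 (SE 0.08), TNRC6C changed by -0.37 (SE 0.09), a call lost without shTTC8 replicate 2, and the fourth Argonaute, AGO2, stood at 0.11 (SE 0.08) and was not called.

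Of 8 tested genes of the replication checkpoint, in which claspin acts, 2 were lower and none higher by edgeR, by DESeq2 and at an unadjusted p under 0.05, with a median of -0.10. TOPBP1 changed by -0.31 (SE 0.06, edgeR adjusted p = 0.00167) and WDHD1 by -0.32 (SE 0.08), a call lost without shTTC8 replicate 2. Relatives of SFPQ and THRAP3 gave 1 lower and none higher of 5 by edgeR and by DESeq2. The lower gene, MATR3, changed by -0.19 (SE 0.06), lost its call in 5 other settings, and NONO, the main partner of SFPQ, stood at -0.03 (SE 0.06). None of the 3 other MYM zinc finger genes was called by edgeR or by DESeq2, and 1 had an unadjusted p under 0.05. Among 8 tested relatives of the synaptic members 2 were higher and 2 lower by edgeR (2 and 1 by DESeq2). VSNL1, a neuronal calcium sensor of the hippocalcin family, had 50.1 and 48.6 CPM in shTTC8 and 15.9 and 16.3 CPM in shScb (log2 fold change 1.61, SE 0.08, edgeR adjusted p = 6.65e-09). The kainate receptor genes GRIK5 and GRIK2 changed by 0.36 (SE 0.08) and -0.40 (SE 0.09), the GRIK2 call being lost without shTTC8 replicate 1.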

How the data were processed

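Per the labels' protocols, cells were harvested for TRIzol extraction and libraries came from an Illumina TruSeq RNA kit. The submitters' processing notes name HISAT2 2.2.0 and hg38, and give no read counter. The deposited values are whole-number counts per Ensembl gene, which the authors did not normalize. Positions, gene types and exons were taken from GENCODE 29, and promoter windows from RefSeq.

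The deposited counts were fitted in edgeR 4.0.16 (R 4.3.3) with filterByExpr (19610 genes kept), TMM scaling and the robust quasi-likelihood F test, two-sided. Benjamini-Hochberg adjustment covered every tested gene, with a threshold of 0.05. CPM use TMM-scaled library sizes, log2 CPM a prior count of 2, and each SE was the log2 fold change divided by the square root of F. DESeq2 1.42.0, other scalings and filters, a replicate block and leaving out each library were alternatives.

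The members and gene lists were chosen with earlier results of these data known. Named genes are the 10 most abundant members, the 10 largest upward and 6 largest downward changes at 5 CPM or more, the 3 tested genes on each side of each edge, the members of 7 role lists, and up to 3 called genes of each list of relatives; other members and marker genes were named after their values were seen. Some genes that this rule names are not reported here. The labels do not say that libraries came from separate cultures, so p-values reflect the spread among these 4 libraries, which may be technical. Replicates differed by more than sampling noise (chi-square per degree of freedom 6.69 in shTTC8 and 12.4 in shScb).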

Additional observations from a re-analysis of the deposited data

How the results depend on the processing

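The upward median of the interval held in each alternative run. It was 0.34 with library size alone, 0.32 without genes that share exons, 0.33 at 5 CPM or more, 0.31 after adjustment for GC content and length (chosen after seeing the data), and 0.26 to 0.31 with 1 library left out. The median of the lower flank was 0.18 with library size alone, 0.12 without the low-count filter and 0.16 without genes that share exons. It was 0.084 after the GC and length adjustment and 0.11 to 0.15 with 1 library left out. That of the higher flank was 0.16 with library size alone, 0.082 without the filter and 0.085 without genes that share exons. There it was 0.13 after the GC and length adjustment and 0.090 to 0.12 with 1 library left out. The cause of these differences was not tested.

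Members called higher numbered 19 to 22 with 1 library left out, against 25, and members called lower 2 to 3. In every setting run, 16 of the 25 remained called by edgeR and by DESeq2. Leaving out shTTC8 replicate 1 removed the calls of AGO1, CLSPN, GRIK3, LSM10, TMEM35B, ZNF362 and ZSCAN20, and leaving out shTTC8 replicate 2 those of ADPRS, CLSPN, LSM10, OSCP1, ZNF362 and ZSCAN20. Over all genes, 1867 to 3181 were called higher with 1 library left out, against 2974; the lowest count, 1867, was without shTTC8 replicate 1, and 2315 to 3370 were called lower, against 3284. With the replicate number as a block, 25 members were called higher and 2 lower, 24 of the 25 shared, and 3092 genes higher and 3343 lower. The replicate numbers are not stated to mark a shared batch, and the replicate differences of the groups correlated across genes at 0.03. Where an arm had 1 library left, it was assumed to vary like the other arm. With 2 libraries a group, the median SE of the members' log2 fold changes was 0.09.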
